A study of Mus musculus with 8 samples.

Results

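Caspases are cysteine proteases that cut after aspartate. They were measured here in a pair of mouse cell lines through 11 probe sets of 7 genes, Casp1, Casp2, Casp4, Casp6, Casp8, Casp9 and Casp12. The members were every probe set besides controls that the platform's gene table assigns to exactly 1 of these genes, out of 45037 probe sets and 18194 named genes on the array. Casp9 had 3 probe sets, Casp6 and Casp12 had 2 each, and the other 4 genes had 1 each. All 11 passed the filter on dim signals, which asked for a log2 intensity of 4 or more on 4 or more arrays.

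The samples were 4 of the line SThdh7/7 and 4 of the line SThdh111/111, with no treatment, age or time given in the labels. Lines of these names are conditionally immortalised cells from the striatal anlage of huntingtin knock-in mouse embryos, and both lines carry the immortalising viral antigen and an altered Htt locus on both alleles. The names give the polyglutamine lengths, 7 in the control line and 111 in the line that models Huntington's disease. Each genotype is a single line, so genotype cannot be told apart from any other difference between the lines, and the labels do not say whether the samples came from separate cultures, so that p-values cover the spread among them alone, which may be technical.

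Caspases are made as inactive precursors and act at different steps. The inflammatory members, caspase-1 and caspase-4 (caspase-11 in the older mouse literature), are activated in inflammasomes or by bacterial lipopolysaccharide in the cytosol, cleave gasdermin D and so trigger pyroptosis. Caspase-12 lies beside them in sequence and in the genome and has been linked to the endoplasmic reticulum. Caspase-8, caspase-9 and caspase-2 start apoptosis from death receptors, from the mitochondrial apoptosome and from the PIDDosome, and caspase-6 is an effector that cleaves lamins and huntingtin.

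Casp4 and Casp12, neighbours on chromosome 9, were higher in SThdh111/111, and Casp8 was slightly lower. Of the 11 probe sets 3 were called higher (the 1 of Casp4 and both of Casp12) and 1 lower, at an adjusted p under 0.05 over all 41409 probe sets tested, and 7 were not called. The background was large: 9.87% of all tested probe sets were called higher and 12.6% lower. Bright probe sets were called more often, so these shares are too low a measure for the called caspases. The 4 called caspase probe sets are among 17603 with a log2 intensity of 8 or more on 4 or more arrays. Of these 17603, 8827 were called, 4046 of them higher. The lines did not overlap at 4 of the 11 caspase probe sets, the same 4 that were called, against 25.1% of all tested probe sets. The 4 calls come from 3 genes, and no test was made of these counts. The median difference over all tested probe sets was -0.12 on the log2 scale and 0.04 with the arrays centred on their medians, and differences given here are as deposited.

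**Figure D1:**
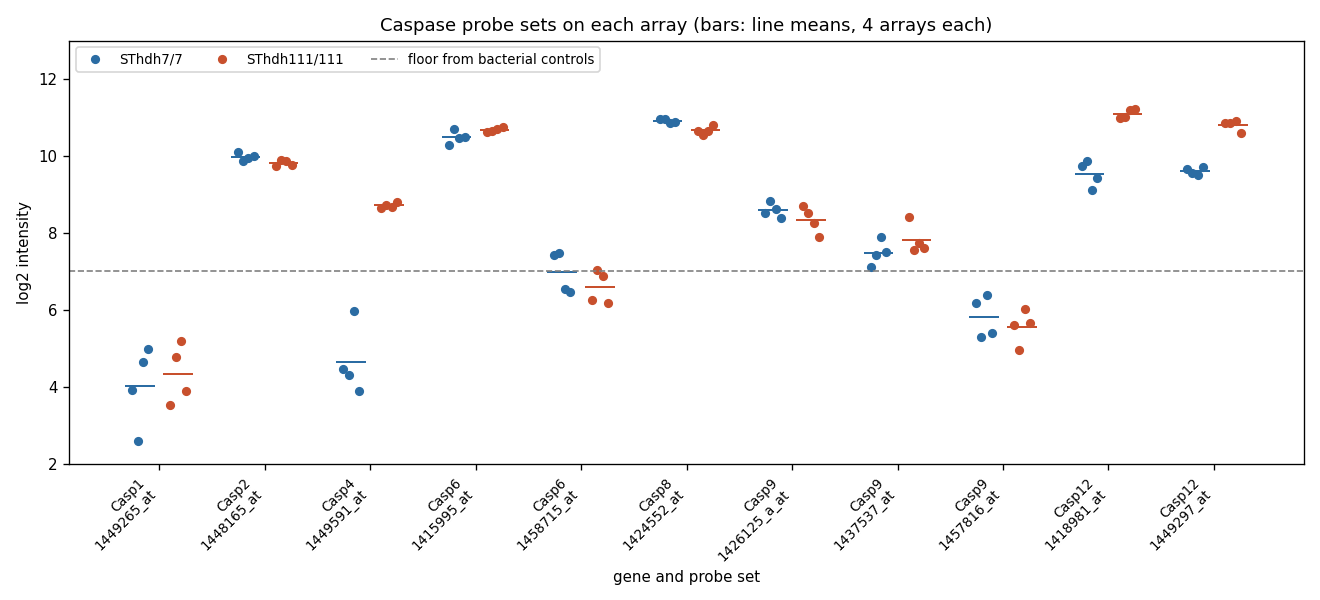
Log2 intensity (vertical axis) of the 11 caspase probe sets (horizontal axis) on each of the 8 arrays, with SThdh7/7 in blue, SThdh111/111 in orange, horizontal bars for the means of 4 arrays and a dashed line for the floor at 7.02. The 4 SThdh111/111 arrays sit above the 4 SThdh7/7 arrays at Casp4 and at both Casp12 probe sets and just below them at Casp8, and the Casp1 probe set and 1 Casp9 probe set lie under the floor on all 8 arrays.

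The promoter sequences are shown for the members whose levels differed, Casp4, Casp12 and Casp8, and for Casp1 as the neighbour that lay under the floor. Each is the 250 bases before a RefSeq start, build GRCm38.p6, plus strand, 5′ to 3′. Casp4 (chr9:5308599-5308848) is shown for the first of its 2 listed starts, beside Casp12 (chr9:5345226-5345475), Casp8 (chr1:58802252-58802501) and Casp1 (chr9:5298267-5298516). Capitals mark matches, on either strand, to the NF-kappaB consensus, the GAS element TTCNNNGAA that STAT factors bind, or the ISRE core GAAANNGAAA that interferon regulatory factors bind.
Casp4: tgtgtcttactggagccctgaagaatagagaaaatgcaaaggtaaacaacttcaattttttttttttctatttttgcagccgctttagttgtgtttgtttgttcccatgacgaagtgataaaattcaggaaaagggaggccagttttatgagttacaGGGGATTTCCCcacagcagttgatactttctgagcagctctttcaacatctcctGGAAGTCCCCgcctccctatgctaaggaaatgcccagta
Casp12: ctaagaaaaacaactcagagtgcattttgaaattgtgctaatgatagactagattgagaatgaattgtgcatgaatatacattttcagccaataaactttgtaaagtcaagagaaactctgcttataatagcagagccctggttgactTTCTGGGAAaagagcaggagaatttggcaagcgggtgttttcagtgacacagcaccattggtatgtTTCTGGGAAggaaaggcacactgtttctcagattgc
Casp8: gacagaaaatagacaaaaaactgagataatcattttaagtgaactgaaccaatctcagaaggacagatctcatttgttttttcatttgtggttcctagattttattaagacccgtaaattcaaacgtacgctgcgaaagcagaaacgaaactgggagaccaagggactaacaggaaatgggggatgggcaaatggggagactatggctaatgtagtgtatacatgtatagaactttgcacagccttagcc
Casp1: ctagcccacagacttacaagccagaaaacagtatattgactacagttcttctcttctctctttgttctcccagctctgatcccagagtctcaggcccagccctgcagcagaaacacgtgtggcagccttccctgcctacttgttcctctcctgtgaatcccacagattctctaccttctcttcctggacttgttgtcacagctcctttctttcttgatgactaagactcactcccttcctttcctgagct

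The Casp4 sequence held matches to the NF-kappaB consensus at 2 separate places, 93 to 83 and 39 to 30 bases before the start. The first place holds 3 matches that overlap each other, on both strands. Of 32851 promoter windows of this length 7.25% held such a match and 0.396% held matches at 2 or more separate places. The Casp12 sequence held the GAS element TTCTGGGAA at 2 places, 102 to 94 and 36 to 28 bases before the start. The pattern TTCNNNGAA reads the same on either strand, so any match to it is on both. A GAS match was present in 7.02% of all windows and in 0.317% at 2 or more separate places. None of the 4 sequences held the ISRE core, which was in 2.98% of windows, and neither Casp1 nor Casp8 held any of these 3 motifs. RefSeq promoters were matched for all 7 genes, and the GC box GGGCGG, found in 32.7% of windows, was present in those of Casp2, Casp6 and Casp9 and in none of the 4 shown. The CCAAT box, in 33.8% of windows, was in those of Casp2, Casp8 and Casp12, and the TATA box TATAAA, in 12.4%, in none. No match overlapped one to another motif. These are matches of letters and were not tested against the expression values.

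Casp4, the cytosolic lipopolysaccharide sensor, showed the widest separation. Its log2 intensities were 4.47, 4.32, 5.98 and 3.89 in SThdh7/7 samples 1 to 4 and 8.66, 8.73, 8.68 and 8.80 in SThdh111/111 samples 1 to 4. Every SThdh7/7 array lay under the floor, the highest 95th percentile of bacterial control probe sets among the arrays (intensity 130.0, log2 7.02), and every SThdh111/111 array lay above it. The SThdh111/111 mean was 8.72 ± 0.06 (SD, n = 4), and Casp4 was therefore at least 3.24-fold higher there (limma adjusted p = 1.2e-05). The fitted difference of 4.05 ± 0.44 (SE) rests on SThdh7/7 values that lay under the floor and spread over 2.09 log2 units. It was 2.93 with 32 added to every intensity and 3.79 without SThdh7/7 samples 1 and 2, whose median intensities stood above those of the other 6 arrays.

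Casp12 was higher at both of its probe sets, each well above the floor on all 8 arrays. At 1418981_at the SThdh7/7 samples measured 9.75, 9.86, 9.12 and 9.43 and the SThdh111/111 samples 10.99, 11.01, 11.19 and 11.21. At 1449297_at the SThdh7/7 samples measured 9.67, 9.55, 9.50 and 9.72 and the SThdh111/111 samples 10.85, 10.85, 10.91 and 10.59. The gap between the highest SThdh7/7 array and the lowest SThdh111/111 array was 1.13 log2 units at the first and 0.87 at the second. The SThdh7/7 arrays spread more at the first.

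The first Casp12 probe set went from 9.54 ± 0.33 to 11.10 ± 0.11 (SD, n = 4), a difference of 1.56 ± 0.14 (SE) or 2.95-fold (95% interval 2.39 to 3.63; limma adjusted p = 1.6e-06). The second went from 9.61 ± 0.10 to 10.80 ± 0.14, a difference of 1.19 ± 0.09 (SE) or 2.28-fold (1.98 to 2.62; adjusted p = 4.6e-07). Among all tested probe sets 3.26% had a larger rise than the first and 5.24% a larger one than the second. The first difference exceeded the second by 0.37, which an exact permutation test over the arrays (two-sided) did not separate from 0 (p = 0.14, adjusted p = 0.17 over 3 such pairs). With 70 arrangements of the arrays, 1 pair alone could not reach an adjusted p under 0.05, so the test cannot decide this. Averaged over both, the rise was 1.37 (adjusted p = 4.0e-07). Without SThdh7/7 samples 1 and 2 the differences were 1.82 and 1.18.

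Casp1, the interleukin-1 converting enzyme and the neighbour of Casp4, lay under the floor on all 8 arrays. It measured 3.91, 2.59, 4.64 and 4.98 in SThdh7/7 and 3.52, 4.77, 5.20 and 3.89 in SThdh111/111. The lines overlapped, and the probe set gives neither a level nor a fold (difference 0.31, 95% interval -1.26 to 1.89, adjusted p = 0.82). The sign turned without SThdh7/7 sample 2, to -0.17, and without samples 1 and 2 together, to -0.47. The chromosome 9 cluster thus gave a rise for Casp12, a bound for Casp4 and no reading for Casp1.

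Casp1, Casp4 and Casp12 follow each other in that order in the RefSeq annotation of GRCm38.p6. Of the 6 protein-coding genes on either side, 12 measured in all, 3 were called higher and none lower (limma; 4 higher and 0 lower at an unadjusted p under 0.05), against 13.1% of all named genes called higher and 15.9% lower with 1 probe set each. The nearest neighbours, Gria4 and Pdgfd, were not called (differences 0.18 ± 0.28 and 0.91 ± 0.97, SE). The genes called were Cwf19l2 (difference 0.74 ± 0.19, SE), Dcun1d5 (0.61 ± 0.07) and Mmp13, which like Casp4 lay under the floor on all SThdh7/7 arrays and reached 7.73 ± 0.34 (SD, n = 4) in SThdh111/111.

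**Figure D2:**
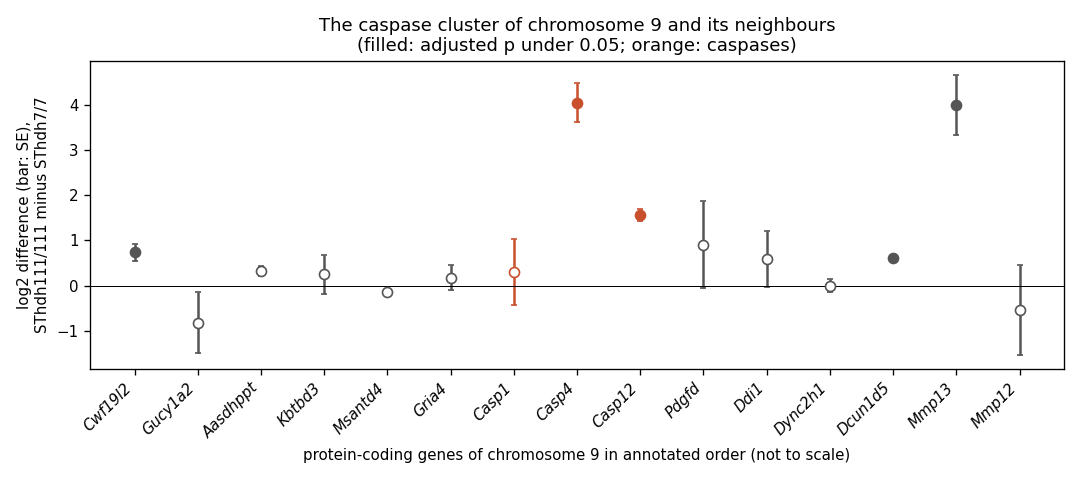
Log2 difference, SThdh111/111 minus SThdh7/7, with its SE (vertical axis) for Casp1, Casp4 and Casp12 and the 6 protein-coding genes on either side, in their order on chromosome 9 (horizontal axis, not to scale); caspases are orange and filled points have an adjusted p under 0.05. Casp4 at 4.05 and Casp12 at 1.56 stand beside Casp1 at 0.31, and 3 of the 12 neighbours are filled; the values of Casp1, and those of Casp4 and Mmp13 in SThdh7/7, lie under the floor.

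Casp8, the initiator that death receptors recruit and a brake on necroptosis, was bright and slightly lower in SThdh111/111. Its probe set measured 10.97, 10.97, 10.87 and 10.88 in SThdh7/7 and 10.66, 10.55, 10.66 and 10.81 in SThdh111/111. The lines did not overlap, with a gap of 0.06 between the lowest SThdh7/7 array and the highest SThdh111/111 array. Casp8 went from 10.92 ± 0.06 to 10.67 ± 0.11 (SD, n = 4) and fell by 0.25 on the log2 scale (SE 0.08; 95% interval -0.41 to -0.09; limma adjusted p = 0.027). The call was lost after centring of the arrays (difference -0.10, adjusted p = 0.64) and in 5 of 8 fits without 1 array: SThdh7/7 sample 1 or 2 or SThdh111/111 sample 1, 2 or 3 (adjusted p 0.062 to 0.093). It was also lost without SThdh7/7 samples 1 and 2 together (difference -0.20, adjusted p = 0.14), and 40.5% of all tested probe sets had a larger fall.

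Casp9, the protease of the apoptosome, was not called at any of its 3 probe sets, and these pointed both ways. At the brightest, 1426125_a_at, the SThdh7/7 samples measured 8.52, 8.82, 8.63 and 8.39 and the SThdh111/111 samples 8.71, 8.52, 8.26 and 7.89. At 1437537_at they measured 7.13, 7.42, 7.89 and 7.52 against 8.41, 7.56, 7.74 and 7.62. The lines overlapped at both, and the differences were -0.25 (95% interval -0.66 to 0.16, adjusted p = 0.43) and 0.34 (-0.22 to 0.91, adjusted p = 0.42). The difference between these differences, -0.59, was not separated from 0 by the exact permutation test (p = 0.086, adjusted p = 0.17), which has the limit given for Casp12. Without SThdh7/7 samples 1 and 2 these differences were -0.17 and 0.13. The third probe set, 1457816_at, lay under the floor on all 8 arrays, from 4.95 to 6.39. The mean over the 3 probe sets differed by -0.05 (adjusted p = 0.91), and the interval of the brightest leaves room for a fall of 0.66.

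Casp2, the caspase of the PIDDosome, measured 10.10, 9.87, 9.96 and 10.00 in SThdh7/7 and 9.74, 9.91, 9.86 and 9.77 in SThdh111/111. The lines overlapped narrowly, at SThdh7/7 sample 2 and SThdh111/111 sample 2. The difference was -0.16 ± 0.09 (SE; 95% interval -0.35 to 0.03; adjusted p = 0.23), an interval of 0.782 to 1.02 times the SThdh7/7 level. After centring of the arrays it was -0.01.

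Casp6, the effector that cleaves lamin A and huntingtin, measured 10.30, 10.71, 10.46 and 10.50 in SThdh7/7 and 10.63, 10.64, 10.71 and 10.75 in SThdh111/111 at its bright probe set, 1415995_at. The upper SThdh7/7 array, sample 2, lay within the SThdh111/111 range and the other 3 lay below it. The difference of 0.19 (95% interval -0.01 to 0.38, adjusted p = 0.17) was not called, but without SThdh7/7 sample 2 it was 0.26 with an adjusted p of 0.040. The second probe set, 1458715_at, lay near the floor, exceeding it in SThdh7/7 samples 1 and 2 and SThdh111/111 sample 2, at 6.46 to 7.47 and 6.19 to 7.03. Its difference of -0.39 (95% interval -1.22 to 0.45, adjusted p = 0.56) became 0.08 without SThdh7/7 samples 1 and 2, and the mean over both probe sets differed by -0.10 (adjusted p = 0.72).

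**Figure D3:**
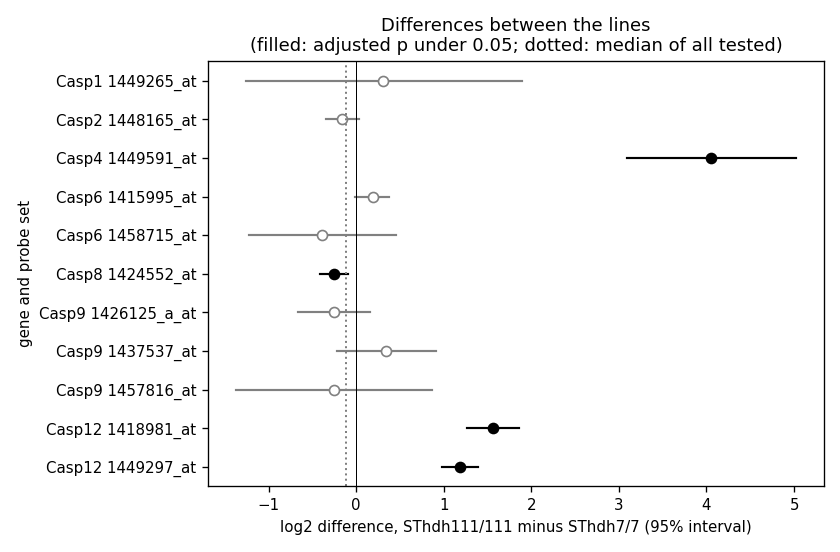
Log2 difference, SThdh111/111 minus SThdh7/7, with its 95% interval (horizontal axis) for each caspase probe set (vertical axis); filled points have an adjusted p under 0.05 and the dotted line marks the median of all tested probe sets at -0.12. Casp4 and both Casp12 intervals lie above 0, the Casp8 interval from -0.41 to -0.09 lies below 0 and reaches the dotted line, and the 7 others cross 0; Casp4 rests on SThdh7/7 values under the floor.

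**Figure D4:**
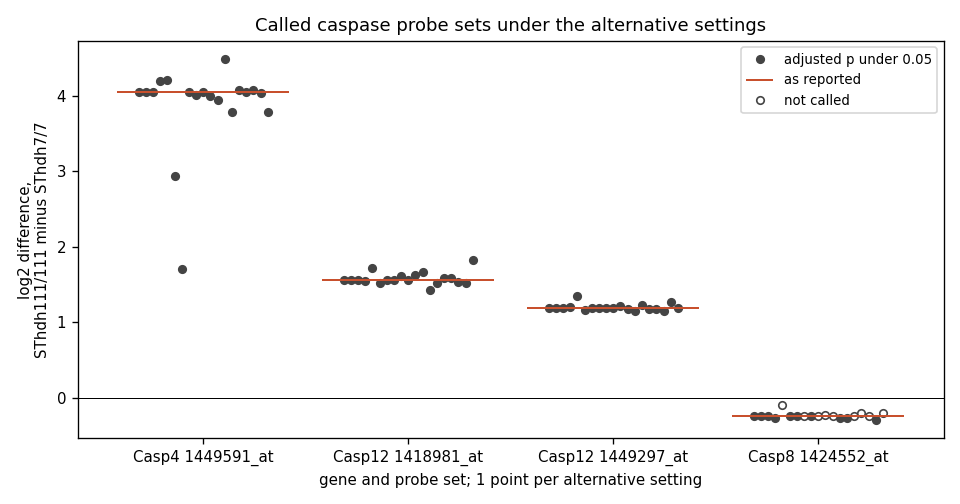
Log2 difference, SThdh111/111 minus SThdh7/7 (vertical axis) of the 4 called caspase probe sets (horizontal axis) under 19 other settings, 1 point each, filled where the adjusted p is under 0.05, with an orange line at the value reported. Casp4 runs from 1.70, with values under the floor set to it, to 4.49, the Casp12 probe sets from 1.42 to 1.82 and from 1.15 to 1.34 with every point filled, and Casp8 from -0.30 to -0.10 with 9 of 19 points open.

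With 1 probe set per gene, the brightest, 2 of the 7 caspases were called higher and 1 lower, with a median difference of 0.19. Over 17389 named genes the median was -0.09, with 13.1% called higher and 15.9% lower. Dim genes are among these, and bright probe sets were called more often. Casp4 had the largest absolute difference among members with at least 1 line above the floor. The 3 genes whose log2 values, centred on their own mean, followed it most closely over the 8 arrays were Sparcl1, Ces1d and Glipr1, with root mean square differences of 0.38, 0.44 and 0.49 log2 units. These 8 arrays form 2 groups, so the likeness is mainly a like difference between the lines, and Sparcl1 too lay under the floor on all SThdh7/7 arrays.

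Inflammatory caspases are best known in microglia and other haematopoietic cells. Of 13 tested markers of these cells 6 had a line mean above the floor, 4 of them (Csf1r, Cd14, Cd68 and Laptm5) on all 8 arrays. Of the 13, 2 were called higher, Csf1r and Cd14 (differences 0.49 and 0.45), and 1 lower, Cd68 (difference -1.75). These were 15.4% and 7.69%, beside 13.1% and 15.9% of all named genes. In the mean over its probe sets Csf1r differed by 0.28 and was not called (limma adjusted p = 0.28). Ptprc, Itgam, Aif1 and C1qa lay under the floor on all 8 arrays. Tyrobp, Cx3cr1, Fcer1g, C1qb and Spi1 exceeded it on some, Spi1 on 4 SThdh7/7 and 3 SThdh111/111 arrays. The summed intensity of the list was 3079 to 4041 in SThdh7/7 and 2501 to 3006 in SThdh111/111. Of this sum Cd68 alone made up 1400 to 1580 in SThdh7/7 and 401 to 548 in SThdh111/111. The lower sum therefore does not speak for the list as a whole. The part of such cells in the caspase values was not tested. Of 10 tested markers of striatal projection neurons, Ppp1r1b, Drd1 and Gad1 lay under the floor on all arrays. Called higher were 2 (20.0%), Penk and Foxp1, and lower 1 (10.0%), Rgs9. Penk, above the floor on 1 of 4 SThdh7/7 arrays, was at least 5.32-fold higher. Foxp1 and Rgs9 had no call in the mean of their probe sets (differences 0.17 and -0.48). Of 5 progenitor markers none was called higher and 3 (60.0%) lower. Sox2 and Nes fell by 2.06 and 1.38 on the log2 scale and Pax6 was at least 6.96-fold lower, while Vim was at 15.50 in both lines and Fabp7 under the floor. Of 6 astrocyte markers 1 was called higher and 1 lower (16.7% each way). Of 6 endothelial markers 2 (33.3%) were called lower, both under the floor in SThdh111/111. In such bulk RNA, fewer cells of a type and less RNA per cell cannot be told apart.

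The genes that work with the caspases were read from lists, chosen with earlier results of these data known, with 95 tested genes in all, of which 26 were higher and 15 lower, or 27.4% and 15.8% beside 13.1% and 15.9% of all named genes. The share called lower was thus near that over all named genes. Of the 95 genes 86 had a line mean above the floor, and bright probe sets were called more often. Of 17603 probe sets with a log2 intensity of 8 or more on 4 or more arrays, 8827 were called, 4046 of them higher. The shares over all named genes are thus too low a measure for these lists. With centred arrays 26 of the 95 genes were higher and 9 lower. Among 8 inflammasome sensors and adaptors 1 rose and 1 fell, 12.5% each way (median difference 0.04). Txnip, a thioredoxin inhibitor that binds NLRP3, rose by 1.19 ± 0.08 (SE), and Nek7, a kinase that NLRP3 needs, fell by 0.78 on the log2 scale. The adaptor gene Pycard lay under the floor on all arrays at its brightest probe set, and Nlrp3 measured 7.72 ± 0.75 and 7.77 ± 0.48 (SD, n = 4). Of 12 genes of pyroptosis and the interleukin-1 family 4 rose and 1 fell, or 33.3% and 8.33% (median 0.46). After centring 5 were higher and none lower (median 0.61). The receptor antagonist gene Il1rn rose by 2.89 ± 0.13 (SE), the alarmin gene Il33 was at least 5.67-fold higher, and the receptor gene Il1r1, above the floor on 1 of 4 SThdh7/7 arrays, was at least 3.48-fold higher. At its brightest probe set the gasdermin gene Gsdme fell by 0.69 on the log2 scale, a call lost after centring, after quantile normalization, without SThdh7/7 sample 4 and with no intensity trend in the fit. Its 1 other probe set was also called lower, and the mean over both differed by -1.42 (limma adjusted p = 0.00011). Gsdmd, the substrate of caspase-4, exceeded the floor on every array but SThdh7/7 sample 1 and had a difference of 0.94 (adjusted p = 0.088), and Il18 differed by 0.05 ± 0.11 (SE).

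Partners of the apoptotic caspases moved both ways. Over all named genes, dim ones included, 13.1% were called higher and 15.9% lower. Of 16 death receptors, ligands and adaptors 4 rose and 3 fell, or 25.0% and 18.8% (median 0.04), but with centred arrays 4 were higher and 1 lower. Mlkl and Ripk3, effectors of the necroptosis that caspase-8 restrains, rose by 1.29 ± 0.13 and 0.75 ± 0.14 (SE), and the death receptor gene Fas rose by 0.50 ± 0.12, a call lost with no intensity trend. The receptor gene Tnfrsf12a fell by 1.62 on the log2 scale. Cflar, which encodes the caspase-8 regulator cFLIP, and the deubiquitinase gene Cyld fell by 0.46 and 0.36, calls lost after centring, with no intensity trend and with the mean of their probe sets (differences -0.59 and -0.16), and Cflar also without SThdh7/7 samples 1 and 2. Of 9 genes of the apoptosome and PIDDosome 1 rose and 4 fell, or 11.1% and 44.4% (median -0.16), and 1 was higher and 2 lower after centring. Htra2, a mitochondrial protease, fell by 1.09 on the log2 scale, Pidd1, the scaffold that activates caspase-2, by 0.87 and cytochrome c (Cycs) by 0.61, the last call lost after centring. At its brightest probe set Diablo, an antagonist of inhibitor of apoptosis proteins, rose by 0.51 ± 0.11 (SE), and by the mean of its probe sets the difference was larger, 0.97, but not called (adjusted p = 0.091).

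Of 13 genes listed as inhibitors of caspases 4 rose and 1 fell (median 0.19). These were 30.8% and 7.69%, beside 13.1% and 15.9% of all named genes, dim ones included. At its brightest probe set Xaf1 rose by 3.29 ± 0.08 (SE). Its 1 other probe set was not called higher and differed in the opposite direction, since the mean over both was only 0.59. Xaf1 encodes an antagonist of XIAP rather than an inhibitor of caspases. Birc3, above the floor on 1 of 4 SThdh7/7 arrays, was at least 2.99-fold higher, with no call in the mean of its probe sets, and Cdkn1a, better known as a cell cycle inhibitor, rose by 0.42 ± 0.07 (SE), a call lost after quantile normalization. Birc5, which is also a mitotic gene, fell by 2.27 on the log2 scale, and Xiap differed by 0.06 ± 0.10 (SE). Of 19 caspase substrates 3 rose and 3 fell (median -0.08), 15.8% each way and near the shares over all named genes. Lmnb1 and Parp1 fell by 1.24 and 0.75 on the log2 scale. Lmna, a substrate of caspase-6, fell by 0.55 at its brightest probe set, and App, Dffa and Gsn rose by 0.53, 0.47 and 0.28. With the mean of their probe sets Lmna, App and Dffa had no call, Gsn lost its call after centring, after quantile normalization and with no intensity trend, and Dffa lost its call without SThdh7/7 samples 1 and 2.

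Of 17 interferon and NF-kappaB regulators 9 rose and 2 fell (median 0.63), and 9 were higher and 1 lower after centring. As deposited these were 52.9% and 11.8%, beside 13.1% and 15.9% of all named genes, dim ones included. Irf7, Stat2 and Irf9, transcription factors of the interferon response, rose by 3.84 ± 0.09, 3.20 ± 0.08 and 2.08 ± 0.09 (SE). The NF-kappaB subunit gene Rela fell by 0.30 on the log2 scale, a call lost after centring and with no intensity trend. The NF-kappaB inhibitor gene Tnfaip3 fell by 1.55 on the log2 scale, with 3 of 4 SThdh111/111 arrays above the floor. Another inhibitor gene, Nfkbia, was called higher (difference 0.32 ± 0.06, SE), and the subunit genes Nfkb2 and Relb were not called. The part of these genes in the levels of Casp4 and Casp12 was not tested. Casp14, the caspase of skin cornification and no member of the 7, had 2 probe sets and differed by -0.27 ± 0.18 (SE; adjusted p = 0.35) at the brighter.

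**Figure D5:**
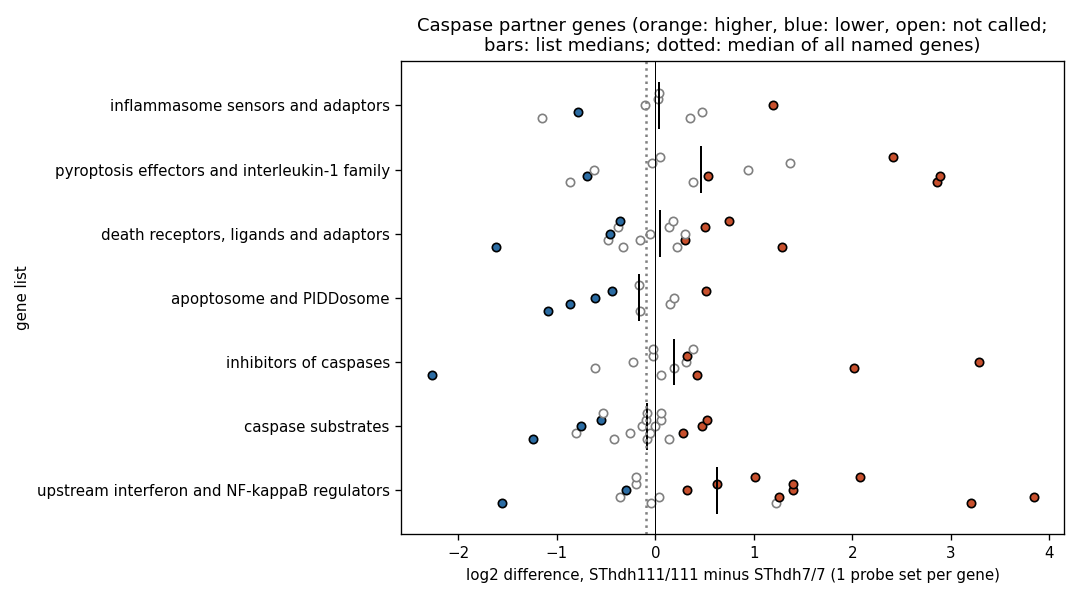
Log2 difference, SThdh111/111 minus SThdh7/7 (horizontal axis), of genes that work with the caspases, 1 point per gene at its brightest probe set, by list (vertical axis); orange points were called higher, blue lower and open ones not called, vertical bars mark list medians and the dotted line the median of all named genes at -0.09. The interferon and NF-kappaB regulators have the highest median of the 7 lists plotted, at 0.63, and the apoptosome and PIDDosome genes the lowest of these 7, at -0.16; some values lie under the floor.

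SThdh7/7 samples 1 and 2 had median intensities of 173.9 and 174.0, against 136.2 to 147.0 on the other 6 arrays, and lower hybridisation controls (log2 intensities of 11.64 and 11.50, the other arrays 11.99 to 12.28). The bacterial controls behind the floor were brighter on the SThdh7/7 arrays (95th percentile 98.7 to 130.0) than on the SThdh111/111 arrays (72.0 to 77.5). Their part in the differences was not tested, and values without samples 1 and 2 stand with the caspases.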

How the data were processed

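RNA was labelled and hybridised to Affymetrix mouse arrays by the Affymetrix protocol, per the labels' protocols. The deposited table holds 1 linear intensity per probe set and array. GCRMA is the only tool in the submitters' processing notes. The intensity values lack its form, since each array has the same trimmed mean of 500.0, so the tool behind them is not settled. The authors' genome build is not given in the sources used here.

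The 64 control probe sets were left out of the fit, and 41409 of 45037 others passed the filter. Of these 45037, 34945 had 1 gene in the platform table, 932 several and 9160 none; symbols were updated by Entrez number to RefSeq (GRCm38.p6). The log2 intensity was fitted over the 8 arrays in limma 3.58.1 under R 4.3.3 (lmFit, then eBayes allowing a trend with intensity). Tests were two-sided, and p-values were adjusted by Benjamini-Hochberg across every tested probe set. The fit was tested on simulated data. The floor comes from 27 bacterial controls (their 95th percentile, on the array where it was highest); a line with arrays under it gives "at least N-fold", those arrays set to it. The number of arrays limits the precision.

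The caspases, the lists, the motifs and the tests were chosen with earlier results of these data known. Named were all caspase probe sets, up to 3 called genes per list and direction with the lowest adjusted p and a line mean above the floor, and Casp14. Outside this rule Pycard, Nlrp3, Gsdmd, Il18, Xiap, Nfkbia, Nfkb2, Relb, the marker genes and the neighbours on chromosome 9 were named after their values were seen. Alternatives were other filters, scalings, offsets and variance models, the floor as a value, the sample number as a block, each array left out, SThdh7/7 samples 1 and 2 left out, and averaging of a gene's probe sets. Figures were drawn with matplotlib 3.10.9.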

Additional observations from a re-analysis of the deposited data

Results flagged for a closer look

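Among 84 groups of 4 arrays, 2 for each of 42 probe sets of caspases and named partner genes, 5 held an array far from the other 3, by a gap that, divided by the range, passed Dixon's 95% critical value; chance flags about 1 in 20 such groups. None was a caspase probe set. Il33 in SThdh111/111 sample 2 measured 9.78 against 9.43 to 9.45 (ratio 0.948). Il1r1 in SThdh7/7 sample 2 measured 7.53, above the floor, against 6.13 to 6.31 (0.871), and Cdkn1a on the same array 13.95 against 13.70 to 13.74 (0.862). Gsdme in SThdh7/7 sample 1 measured 8.27 against 8.91 to 9.02 (0.854). Tnfaip3 in SThdh111/111 sample 3 measured 6.95 against 8.10 to 8.33 (0.833).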

How the results depend on the processing

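The 3 calls of Casp4 and Casp12 held under all 19 alternatives, with differences of 1.70 to 4.49 for Casp4, 1.42 to 1.82 and 1.15 to 1.34 for Casp12. The count of caspase probe sets called lower, 1 as reported (Casp8), was 0 after centring, with no intensity trend, with the replicate block and without SThdh7/7 samples 1 and 2, and 0 to 1 with 1 array left out. The count called higher was 3 to 4 with 1 array left out, the fourth being Casp6. With the replicate block Casp8 stood at -0.25 (limma adjusted p = 0.055), and the block ended no other caspase call. Same-numbered samples deviated together no more than others (correlations -0.0101 to 0.0131, the others -0.0287 to 0.0318). A pairing with small shared effects would look the same, so this cannot decide whether the numbers pair the lines. Partner genes called lower numbered 15, and 9 after centring, which turned the share of lower calls over all probe sets from 56.0% to 39.5%. Among the caspases signs turned where nothing was called: Casp1 (-0.17 to 0.63 with 1 array left out, the lowest without SThdh7/7 sample 2; -0.47 without samples 1 and 2), the dim Casp6 probe set (0.08 without samples 1 and 2) and the Casp6 mean over probe sets (-0.10). The partner gene App, called higher, had a mean over its probe sets of -0.05. With values set to the floor, Casp1 and the third Casp9 probe set give no value. Signals under the floor limit Casp1, Casp4 in SThdh7/7 and 1 Casp9 probe set.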
